A study of Homo sapiens with 18 samples.

Results

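Gene expression was compared between Caco-2 cells kept for 72 h in medium without riboflavin and control cells of the same time. The comparison rested on 6 of the 18 arrays of the series, 3 of depleted and 3 of control cells, chosen by the treatment and time in their titles. Caco-2 is an established line from a human colon tumour that forms an absorptive, enterocyte-like layer. Control cells were untreated and grew in DMEM, and depleted cells in riboflavin-free DMEM, both with foetal calf serum, penicillin and streptomycin. Dialysed serum from the same batch was used in parts of the study, and the labels do not say whether for these arrays. The other 12 arrays held the same conditions at 24 and 48 h. A running number placed 1 array of every group in each of 3 sets, so each depleted array had a control array of its own set. The labels do not state that sets came from separate cultures, so p-values reflect the spread among these samples alone, which may be technical.

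Riboflavin, vitamin B2, is taken up by SLC52 transporters and converted by riboflavin kinase and FAD synthase to FMN and FAD. These cofactors serve fatty acid oxidation, complexes I and II of the respiratory chain, thioredoxin and glutathione reductases, and enzymes of folate, haem and sterol metabolism. The intestinal epithelium absorbs the vitamin and renews itself quickly, and growth of its cells depends on flavin supply.

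On the 6 arrays of 72 h set 1 had median signals of 19.6 to 20.7, set 2 of 28.2 to 28.7 and set 3 of 21.7 to 22.3. Set 2 also reached higher top signals, 27800 to 28856 against at most 8130 in the other sets. Arrays of a set moved together, so the set entered the fit as a replicate block. Of 13 measured colon epithelial markers, EPCAM, KRT8, KRT18, CDH1, CDH17 and VIL1 were high on every array, while KRT20 stayed at 9.7 to 31.3 and LGALS4 was too dim to be tested. Of these 13 markers 1 rose, CLDN4, and 1 fell, TFF3, which is near the shares over all genes tested (6.21% higher and 8.65% lower). The leukocyte gene PTPRC and the goblet cell genes MUC2, CLCA1, ZG16, SPINK4 and ATOH1 also lay below the filter on dim probe sets. The other 6 of 11 goblet cell genes were measured. Of these, AGR2 read 3296 to 3979, REG4 222 to 395 and TFF1 162 to 353 on the arrays of 72 h, while FCGBP was dim at 6 to 35.6. Fewer cells of a state and less RNA per cell cannot be told apart in such bulk RNA.

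Of 12319 genes tested, 765 were higher (6.21%) and 1066 lower (8.65%) in depleted cells at 72 h, at an adjusted p of 0.05 in limma. More than 2-fold changes made up 213 of the rises and 263 of the falls. The 3 depleted arrays lay wholly above or below the 3 controls in 2854 of the 12319 genes, so a lack of overlap was common. Without the block 236 genes were higher (1.92%) and 304 lower (2.47%), and all 540 of these were also called with it. The size of the response depended on single sets. With all sets 3631 probe sets were called, 1748 higher and 1883 lower. Without set 1 there were 349 calls (343 of them among the 3631), without set 2 2853 (2284) and without set 3 599 (585), where only 12 arrays remained in the fit. Higher and lower were 201 and 148 without set 1, 1355 and 1498 without set 2, and 351 and 248 without set 3. List counts without a set, given below, are to be read beside these totals out of 27307 probe sets. With 1 array of 72 h left out, 2135 to 2513 were called. Of the 130 genes named in this report, 61, 115 and 72 kept their side of the threshold without set 1, set 2 and set 3. Below, lost calls are given for some genes only, so a gene without this remark may have lost its call too. The plot of all genes shows where the genes described next lie.

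**Figure D1:**
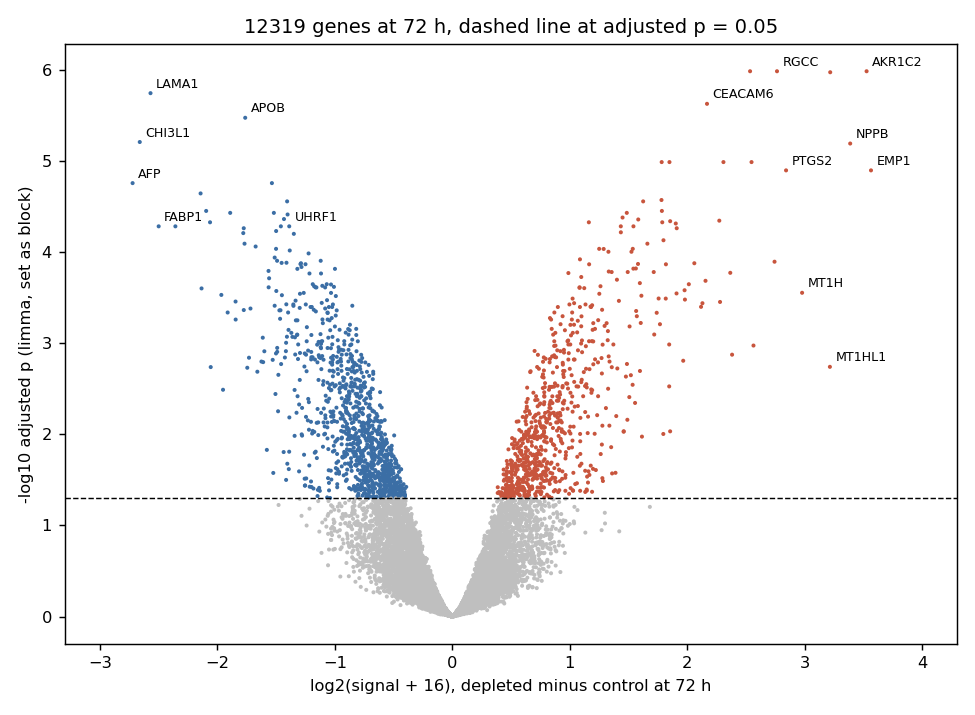
Difference between depleted and control cells at 72 h (x axis, log2 of signal + 16) against -log10 of the adjusted p (y axis) for 12319 genes, with rises in red, falls in blue, other genes in grey and a dashed line at an adjusted p of 0.05. The 765 rises include EMP1, AKR1C2 and NPPB above 3 on the log2 scale, and the 1066 falls reach -2.72 in AFP.

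Promoters of genes from the groups that rose are shown first, since 2 short motifs in them are the known sites of the factors that control these groups. The letters are 250 bases before the gene's start, read 5′ to 3′ on the gene's strand, from RefSeq (GRCh38.p14). In the first 3, capitals mark the antioxidant response element bound by NRF2 (TGACNNNGC, either strand). They belong to GCLM, the modifier subunit of glutamate-cysteine ligase (chr1:93909431-93909680, minus strand), GPX2, an intestinal glutathione peroxidase (chr14:64942746-64942995, minus strand), and TXNRD1, thioredoxin reductase (chr12:104215529-104215778, plus strand).
GCLM: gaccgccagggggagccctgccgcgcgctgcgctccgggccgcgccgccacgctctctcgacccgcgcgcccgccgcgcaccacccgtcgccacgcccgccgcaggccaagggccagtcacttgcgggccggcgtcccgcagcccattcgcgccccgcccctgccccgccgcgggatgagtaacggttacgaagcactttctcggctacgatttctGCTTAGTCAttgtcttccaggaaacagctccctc
GPX2: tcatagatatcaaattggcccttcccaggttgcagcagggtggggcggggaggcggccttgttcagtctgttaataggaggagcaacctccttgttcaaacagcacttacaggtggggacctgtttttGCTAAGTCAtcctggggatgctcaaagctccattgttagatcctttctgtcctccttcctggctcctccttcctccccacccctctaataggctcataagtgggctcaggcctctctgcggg
TXNRD1: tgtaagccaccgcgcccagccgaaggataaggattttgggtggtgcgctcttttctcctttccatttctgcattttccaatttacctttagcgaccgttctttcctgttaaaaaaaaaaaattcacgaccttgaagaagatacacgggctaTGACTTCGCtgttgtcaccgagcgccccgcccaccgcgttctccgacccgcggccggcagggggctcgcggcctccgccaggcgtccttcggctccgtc

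In the metallothionein promoters, capitals mark the core of the metal response element bound by MTF1 (TGCNCNC, either strand). They lie upstream of MT1H (chr16:56669564-56669813), MT1X (chr16:56682220-56682469) and MT2A (chr16:56608334-56608583), all on the plus strand.
MT1H: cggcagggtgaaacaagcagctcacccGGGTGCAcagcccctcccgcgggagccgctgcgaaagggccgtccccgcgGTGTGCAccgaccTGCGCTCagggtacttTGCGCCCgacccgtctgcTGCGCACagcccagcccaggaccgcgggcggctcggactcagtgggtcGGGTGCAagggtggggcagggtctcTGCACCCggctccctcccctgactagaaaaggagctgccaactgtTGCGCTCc
MT1X: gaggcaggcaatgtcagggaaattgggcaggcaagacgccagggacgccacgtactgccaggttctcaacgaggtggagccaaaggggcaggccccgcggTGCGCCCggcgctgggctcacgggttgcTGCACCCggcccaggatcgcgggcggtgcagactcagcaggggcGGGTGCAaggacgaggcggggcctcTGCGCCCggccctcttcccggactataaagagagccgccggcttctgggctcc
MT2A: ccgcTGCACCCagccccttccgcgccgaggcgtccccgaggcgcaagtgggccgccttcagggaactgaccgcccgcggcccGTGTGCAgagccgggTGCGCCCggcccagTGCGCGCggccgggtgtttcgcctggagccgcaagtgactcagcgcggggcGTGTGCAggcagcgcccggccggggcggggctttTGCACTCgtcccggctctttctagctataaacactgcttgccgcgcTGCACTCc

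Promoters were found for 10015 of the genes tested, 1 per symbol. The antioxidant motif stood in 11.0% of all 27305 promoters of the table, in 12.3% of those of tested genes and in 6 of 28 found for the NRF2 list. Of the 23 members of that list past the test, 19 had a promoter and 5 of these the motif, namely GCLM, GPX2, TXNRD1, ME1 and CBR1. The metal motif is short and stood in 48.4% of all promoters, but 4 or more matches were held by 1.70%. MT1H held 8, MT2A 7 and MT1X 4. A match is a description of letters and was not tested as a site.

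Of 36 measured targets of NRF2, the factor that induces antioxidant and detoxifying enzymes, 22 rose at 72 h, 1, CBR1, fell and 13 did not pass, with a median difference of 0.74 against -0.04 over all genes. Without the block 13 rose, and without set 1, set 2 and set 3 the rises numbered 9, 20 and 9. This list and those below were chosen with earlier results of these data known, so their counts are not independent evidence. AKR1C2, an aldo-keto reductase of steroids and carbonyls, had control signals of 448, 317 and 272 in sets 1 to 3 and depleted signals of 4072, 4895 and 3373. Every depleted array was far above every control array, 11.5-fold on the log2(signal + 16) scale (log2 3.53, SE 0.20, adjusted p = 1.02e-06). The probe set of its near-identical relative AKR1C1 was 9.3-fold higher (log2 3.22, SE 0.19, adjusted p = 1.05e-06), and the assignment between these genes is uncertain. Their differences had been 2.76 and 2.69 at 24 h already, and the difference between 72 h and the earlier times did not pass the test (adjusted p = 0.12 and 0.32).

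For 7 of the 36 NRF2 targets the effect at 72 h lay above that of the earlier times by the test of the difference, in which 299 of all genes lay above (2.43%) and 515 below (4.18%). GPX2 had control signals of 114, 138 and 138 and depleted signals of 712, 627 and 783, without overlap (4.95-fold, log2 2.31, SE 0.18, adjusted p = 1.02e-05). Its effect exceeded the mean of 24 and 48 h by 1.45 (SE 0.23, adjusted p = 0.00314). TXNRD1, itself a flavoenzyme, went from 1076, 631 and 998 to 3356, 2476 and 3458, again with all depleted arrays above the controls (3.44-fold, log2 1.78, SE 0.14, adjusted p = 1.02e-05). Its effect at 24 h had been 0.50 and did not pass (adjusted p = 0.0784), and the later effect was larger by 1.20 (SE 0.17, adjusted p = 0.00191). The glutathione synthesis genes GCLM (log2 1.78, SE 0.16, adjusted p = 2.66e-05) and GCLC (log2 1.45, SE 0.14, adjusted p = 4.14e-05) and the sulfiredoxin gene SRXN1 (log2 1.80, SE 0.19, adjusted p = 7.36e-05), named after their values were seen, rose too. HMOX1, haem oxygenase, did not pass, with controls of 186, 272 and 218 and depleted arrays of 159, 336 and 384 that overlapped.

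Metallothioneins, small zinc and copper binding proteins, were among the largest rises. Of 11 measured genes of metallothioneins and zinc transport 5 rose and none fell (median 1.03), 4 without the block, and 2, 4 and 3 without set 1, 2 and 3. MT1X had control signals of 22.6, 54.6 and 31.1 and depleted signals of 286, 309 and 376, 6.69-fold higher (log2 2.74, SE 0.31, adjusted p = 0.000127). MT2A went from 88.7, 109 and 106 to 496, 1140.2 and 541, with the depleted array of set 2 the highest (5.91-fold, log2 2.56, SE 0.40, adjusted p = 0.00105), and lost its call without set 1 (adjusted p = 0.0559). MT1H was near the floor in controls, at 6.9, 11.3 and 9.2, and at 196, 241 and 126 in depleted cells (log2 2.98, SE 0.38, adjusted p = 0.000278). No control array overlapped a depleted array in any of the 3, as in 2854 of all 12319 genes tested. The effects of MT1X, MT2A and MT1H at 24 h were 1.05, -0.26 and 0.14, none past the test. The later effects were larger by 1.96, 2.32 and 3.02 (adjusted p = 0.0098, 0.014 and 0.0029). The probe set listed under MT1HL1 also rose (log2 3.21, SE 0.55, adjusted p = 0.00181) but was not called without set 1 or set 3 (adjusted p = 0.0595 and 0.0508). These probe sets can read several near-identical MT1 genes. The zinc exporter SLC30A1, also on the list, was not called at 72 h (log2 -0.22, SE 0.16, adjusted p = 0.442), and its difference lay -0.96 from that of the earlier times (adjusted p = 0.014).

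The largest rise of all was EMP1, an epithelial membrane protein, with control signals of 82.2, 17.6 and 45.7 and depleted signals of 677, 617 and 751. Depleted arrays lay close together and far above the controls (11.8-fold, log2 3.56, SE 0.29, adjusted p = 1.26e-05). EMP1 belongs to a list of stress-associated epithelial genes drawn up with earlier results of these data in view, so its direction is no independent evidence. Of 32 measured members 19 rose and none fell (median 0.85), 14 without the block, and 11, 19 and 11 without set 1, 2 and 3. NPPB, which encodes a natriuretic peptide, went from 53.9, 75.1 and 113 to 910.2, 796 and 1236 (10.5-fold, log2 3.39, SE 0.25, adjusted p = 6.37e-06). RGCC, a cell-cycle regulator, had control signals of 211, 202 and 253 and depleted signals of 1649, 1397 and 1754, with narrow spread within each group (6.79-fold, log2 2.76, SE 0.16, adjusted p = 1.02e-06). GPRC5A, an orphan receptor of epithelia, went from 159, 218 and 251 to 1135, 1496 and 1203 (log2 2.53, SE 0.15, adjusted p = 1.02e-06), and ANXA1, a phospholipid-binding annexin, rose by 1.85 (SE 0.15). The MAP kinase phosphatase DUSP4 rose by 2.37 (SE 0.28), from 17, 30.9 and 33.8 to 193, 171 and 255. For 13 members of the list the effect exceeded that at the earlier times.

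Of 19 measured AP-1 and immediate early genes 11 rose and none fell (median 0.88), 8 without the block, and 4, 10 and 7 without set 1, 2 and 3. MAFF, a small MAF protein, rose 4.85-fold (log2 2.28, SE 0.30, adjusted p = 0.00035), ATF3 3.53-fold (log2 1.82, SE 0.21, adjusted p = 0.000135) and KLF10 2.42-fold (log2 1.27, SE 0.17, adjusted p = 0.000427). KLF10 lost its call without set 1 (adjusted p = 0.0544). MYC, the growth-promoting transcription factor, went from 632, 334 and 685 in controls to 2161, 969 and 3009.9, the lowest depleted array being that of set 2 (log2 1.78, SE 0.17, adjusted p = 3.5e-05). Of 21 NF-kB and inflammatory genes 10 rose and none fell (median 0.71), 5 without the block, and 2, 11 and 4 without set 1, 2 and 3. PTGS2, the inducible prostaglandin synthase COX-2, had control signals of 109, 148 and 141 and depleted signals of 1153, 1094 and 894 (7.16-fold, log2 2.84, SE 0.23, adjusted p = 1.26e-05). The chemokine CCL20 went from 67.8, 11.2 and 51.3 to 396, 263 and 173 (log2 2.38, SE 0.38, adjusted p = 0.00133) and lost its call without set 1 (adjusted p = 0.0681). CXCL8, interleukin 8, was dim in controls at 8.6, 4.5 and 3 and reached 59.6, 79.1 and 20.9 (log2 1.60, SE 0.28, adjusted p = 0.00201), with an adjusted p of 0.0853 without the block. TNFAIP8 rose 2.88-fold (log2 1.52, SE 0.17, adjusted p = 9.84e-05). Of 6 measured leukocyte markers only LYZ passed the test (log2 0.76, SE 0.17, adjusted p = 0.00838), while CD3E (-0.07), CD14 (0.09), CD74 (-0.13), LAPTM5 (0.15) and FCER1G (0.40) did not. Summed over the leukocyte list, control arrays read 386.0 to 432.7 and depleted arrays 516.9 to 576.6, and LYZ made up most of the difference. The defining leukocyte genes PTPRC and TYROBP lay below the filter.

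**Figure D2:**
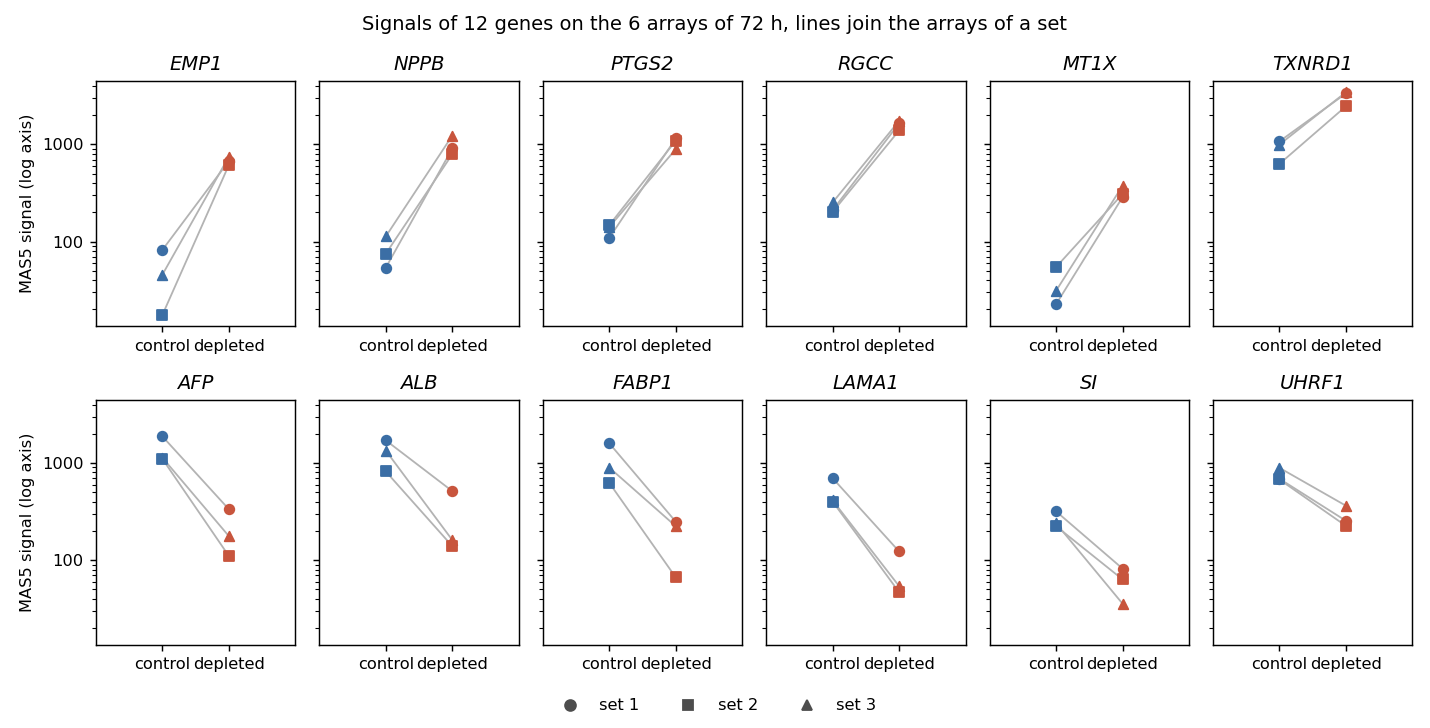
MAS5 signals (y axis, log scale) of 12 genes on the 6 arrays of 72 h, control cells in blue and depleted cells in red, with the marker shape giving the set and a line joining its 2 arrays. In every panel the depleted arrays lie wholly above (upper row) or below (lower row) the controls, as in 2854 of all 12319 genes tested.

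Targets of YAP and TGF-beta signalling, which respond to cell shape and growth factors, were raised in part. Of 24 measured 9 rose and 2 fell (median 0.36), 7 and 2 without the block. Without set 1 only 2 rose, against 9 without set 2 and 6 without set 3. CCN1, a matrix-associated signalling protein, went from 320.2, 356 and 597 to 1611, 2442 and 1589 (4.37-fold, log2 2.13, SE 0.28, adjusted p = 0.000362). ANKRD1 rose by 1.77 (SE 0.25) and TGFB2, a TGF-beta ligand, by 2.01 (SE 0.25). ANKRD1 lost its call without set 1 (adjusted p = 0.0684). LTBP1, which tethers latent TGF-beta, fell by 0.91 (SE 0.13), but was not called without set 1 or set 3 (adjusted p = 0.0547 and 0.0761). EDN1, the peptide endothelin 1, which is not on the list, had control signals of 202, 414 and 194 and depleted signals of 1352, 1933 and 1453 (5.84-fold, log2 2.55, SE 0.20, adjusted p = 1.02e-05).

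Of 25 measured CDK inhibitors and p53 targets 8 rose, 3 fell and 14 did not pass (median 0.35). Without the block 5 rose and none fell, and 2, 6 and 3 rose without set 1, 2 and 3. GADD45A, a DNA damage and stress response gene, went from 207, 219.9 and 298 to 907, 921 and 998 (3.76-fold, log2 1.91, SE 0.19, adjusted p = 5.43e-05), PLK2 rose 3.74-fold (log2 1.90, SE 0.19, adjusted p = 4.82e-05) and BTG1, an antiproliferative gene, 2.15-fold (log2 1.10, SE 0.17, adjusted p = 0.000928). BTG1 was not called without set 1 or set 3 (adjusted p = 0.0515 and 0.0526). CDKN1A, the p21 inhibitor, did not pass, with controls of 41, 42.4 and 57 and depleted arrays of 20.8, 53.8 and 77.1 that overlapped (log2 -0.01, SE 0.22, adjusted p = 0.988). GDF15, a secreted stress cytokine, rose 4.17-fold, from 190.5, 163 and 336 to 951, 809 and 1163 (log2 2.06, SE 0.24, adjusted p = 0.000132).

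The amino acid response that is controlled by ATF4 was mixed at 72 h. Of 42 measured 11 rose and 5 fell (median 0.09), 5 and 2 without the block, and 3, 7 and 3 rose without set 1, 2 and 3. At 24 h 20 had risen and none had fallen (median 0.74). By the test of the difference 8 members lay below their earlier effect and 3 above. ALDH1L2, a mitochondrial folate enzyme, had control signals of 191, 159.9 and 143 and depleted signals of 81.6, 67.1 and 53.5 at 72 h, a fall of 2.17-fold (log2 -1.12, SE 0.13, adjusted p = 0.000124). At 24 h it had risen by 1.42 (adjusted p = 0.000148), and the difference was -1.99 (SE 0.16, adjusted p = 3.09e-05). STC2, a secreted glycoprotein, had likewise been higher at 24 h (1.64, adjusted p = 0.00116) and was lower at 72 h (log2 -0.90, SE 0.20, adjusted p = 0.0098), though a dimmer probe set of this gene read 0.30 and was not called. The fall of STC2 was not called without set 1 or set 3 (adjusted p = 0.108 and 0.0997). CTH, cystathionine gamma-lyase, was still higher (log2 1.07, SE 0.15, adjusted p = 0.000564). ASNS, asparagine synthetase, stood at 0.20 (adjusted p = 0.413) after a rise of 1.41 at 24 h. Chaperones of the unfolded protein response gave 1 rise, DNAJB9, and 3 falls of 23 measured, and none of these passed without the block (0 and 0).

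Genes of secreted proteins of the fetal liver, which Caco-2 cells make, were among the largest falls. Of 28 measured 11 fell and none rose (median -0.42), 9 without the block, and 6, 11 and 6 without set 1, 2 and 3. AFP, alpha-fetoprotein, had control signals of 1878, 1102 and 1133 and depleted signals of 334, 110.0 and 176, every depleted array being below every control (6.6-fold lower, log2 -2.72, SE 0.24, adjusted p = 1.73e-05). ALB, albumin, went from 1709.6, 817 and 1340.4 to 513, 139 and 161 (5.13-fold lower, log2 -2.36, SE 0.24, adjusted p = 5.17e-05). The fibrinogen chain FGG went from 3681, 2196 and 2739.5 to 1027, 429.5 and 649 (log2 -2.06, SE 0.21, adjusted p = 4.67e-05). APOB, the structural protein of chylomicrons and LDL, fell from 1275, 761 and 1347 to 432, 179 and 383 (log2 -1.76, SE 0.12, adjusted p = 3.32e-06). Its differences within sets 1 to 3 were -1.53, -1.99 and -1.77, while its level differed by set (SE 0.40 without the block). AFP and ALB were already lower at 24 h (-1.84 and -1.99), and their difference between 72 h and the earlier times did not pass (adjusted p = 0.16 and 0.66). For 5 members, APOB and FGG among them, the later effect was lower than the earlier one. The list also holds CPS1, a mitochondrial urea cycle enzyme that is not secreted.

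The enterocyte list moved both ways. Of 28 measured 6 rose and 4 fell (median 0.00), 5 and 3 without the block. Without set 1, 2 and 3 the rises numbered 2, 5 and 4 and the falls 3 each time. FABP1, which binds fatty acids in enterocytes and hepatocytes, had control signals of 1599, 625 and 898 and depleted signals of 249, 66.4 and 224 (5.66-fold lower, log2 -2.50, SE 0.25, adjusted p = 5.17e-05). The brush border sucrase-isomaltase gene SI went from 318, 224 and 239 to 81.8, 63.3 and 35.6 (3.71-fold lower, log2 -1.89, SE 0.18, adjusted p = 3.68e-05), and the carbonic anhydrase gene CA2 fell 2.61-fold (log2 -1.38, SE 0.15, adjusted p = 9.53e-05). The adhesion molecule CEACAM6 moved the other way, from 376, 388 and 374 to 1799, 1766 and 1717, with almost no spread within either group (4.49-fold, log2 2.17, SE 0.15, adjusted p = 2.33e-06). Its relatives CEACAM1 and CEACAM5, named after their values were seen, rose by 2.12 (SE 0.28) and 1.97 (SE 0.33).

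Mitochondrial fatty acid oxidation runs on FAD-dependent acyl-CoA dehydrogenases. Of 22 measured genes of this pathway and PPAR targets 12 fell, none rose and 10 did not pass (median -0.53). Only 3 fell without the block, and 2, 6 and 2 without set 1, 2 and 3. EHHADH, a peroxisomal rather than mitochondrial enzyme on this list, went from 474, 396 and 351 to 149, 101 and 79.1 (3.43-fold lower, log2 -1.78, SE 0.18, adjusted p = 6.14e-05). CPT2, which releases acyl groups inside mitochondria, fell 2.02-fold (log2 -1.02, SE 0.18, adjusted p = 0.0023). CPT2 was not called without set 1 or set 3 (adjusted p = 0.0953 and 0.0666). For 6 members the effect lay below that of the earlier times, at which the medians were 0.10 (24 h) and -0.06 (48 h).

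Genes of flavin-dependent enzymes were called in both directions, where 6.21% of all genes tested were higher and 8.65% lower. Of 26 measured genes on the list of mitochondrial flavin dehydrogenases and electron transfer 6 fell and 1, AIFM2, rose (median -0.19). The rise of AIFM2 was not called without set 1 or set 3 (adjusted p = 0.0933 and 0.176). A dimmer AIFM2 probe set read 0.28 and was not called. Without the block 1 fell, and without set 1, 2 and 3 the falls were 0, 5 and 0. ACADM, the medium-chain acyl-CoA dehydrogenase, went from 1072, 917 and 642 to 457, 563 and 359 (log2 -0.90, SE 0.15, adjusted p = 0.00132) but did not pass without the block (adjusted p = 0.0672). ETFB, a subunit of the electron transfer flavoprotein, fell by 0.87 (SE 0.17) (adjusted p = 0.18 without the block). Among those that fell is SUOX, which uses molybdenum and haem rather than a flavin. Of 45 other FAD and FMN enzymes 7 rose and 5 fell (median -0.08), 2 and 3 without the block. The 1 rise of 26 and the 5 falls of 45 lie near the shares over all genes. For the list of 45, without set 1, 2 and 3 the rises were 2, 6 and 2 and the falls 1, 3 and 1. PCYOX1, prenylcysteine oxidase, fell 2.34-fold, from 1429.5, 1622 and 1152 to 578, 616 and 561 (log2 -1.22, SE 0.14, adjusted p = 0.000103), and ACOX2, a peroxisomal acyl-CoA oxidase, fell 2.14-fold (log2 -1.10, SE 0.18, adjusted p = 0.00151). ACOX2 was not called without set 1 or set 3 (adjusted p = 0.051 and 0.0719). NOX1, the colonic NADPH oxidase, went from 197, 114 and 179 to 516, 304 and 488 (log2 1.33, SE 0.16, adjusted p = 0.000162), after a difference of -1.06 at 24 h (adjusted p = 0.00387), and the difference was 2.11 (SE 0.19, adjusted p = 0.000143).

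None of the 7 measured genes of riboflavin uptake and cofactor synthesis passed the test (median 0.14). The transporter SLC52A2 had control signals of 161, 128 and 250.5 and depleted signals of 143, 199 and 253 (log2 0.14, SE 0.20, adjusted p = 0.702), and its groups overlapped. RFK, riboflavin kinase, was at 192, 231 and 135 and 193, 330.4 and 139 (log2 0.18, SE 0.18, adjusted p = 0.575), and FLAD1, FAD synthase, at 147, 152 and 188 and 158, 139 and 209.9 (log2 0.04, SE 0.14, adjusted p = 0.892). Another FLAD1 probe set with a lower mean read -0.86 (adjusted p = 0.0202), so the probe sets of this gene disagree. The transporter SLC52A3 was dim, at 20.9, 6 and 34 and 35.5, 10.3 and 39.1. The mitochondrial carrier SLC25A32 stood at 0.40 (SE 0.15), ENPP1 at -0.16 (SE 0.17) and ACP1 at -0.49 (SE 0.17), none past the test. For SLC25A32 the difference from the earlier times passed narrowly (0.67 (SE 0.18, adjusted p = 0.049)).

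Of 33 measured subunits of complex I of the respiratory chain 13 fell, none rose and 20 did not pass (median -0.40). Without the block 1 fell, where 304 of all 12319 genes (2.47%) were called lower. Without set 1, 2 and 3 it was 0, 9 and 0, where 148, 1498 and 248 of all 27307 probe sets were called lower. NDUFB2 went from 949, 1274 and 965 to 565, 691 and 606 (1.68-fold lower, log2 -0.75, SE 0.14, adjusted p = 0.00305), but was not called without set 1 or set 3 (adjusted p = 0.105 and 0.0784). NDUFA8 fell by 0.78 (SE 0.14) within sets, while its 3 control and 3 depleted arrays overlapped, and it did not pass without the block (adjusted p = 0.346). Of 35 subunits of complexes II to V 8 fell, none rose and 27 did not pass (median -0.22), 1 without the block and 1, 2 and 1 without set 1, 2 and 3. ATP5MC1, which encodes subunit c of ATP synthase, fell most, from 689, 888 and 602 to 235, 281 and 208 (2.87-fold, log2 -1.52, SE 0.15, adjusted p = 3.68e-05). PC, pyruvate carboxylase, had control signals of 37.6, 85.6 and 66.8 and depleted signals of 4.6, 1.8 and 16.6 (log2 -1.75, SE 0.30, adjusted p = 0.00185), but was not called without set 1 or set 3 (adjusted p = 0.0555 and 0.0503).

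Of 20 measured cholesterol synthesis genes 12 fell, none rose and 8 did not pass (median -0.77), 6 without the block, and 2, 9 and 4 without set 1, 2 and 3. FDPS, farnesyl diphosphate synthase, went from 1572, 873 and 1158 to 642, 301 and 464 (2.55-fold lower, log2 -1.35, SE 0.14, adjusted p = 6.26e-05), and TM7SF2, a sterol reductase, from 238, 366 and 261 to 82.8, 91 and 75.2 (log2 -1.60, SE 0.25, adjusted p = 0.00122). TM7SF2 was not called without set 1 or set 3 (adjusted p = 0.051 and 0.0581). ACAT2, cytosolic acetoacetyl-CoA thiolase, fell 2.32-fold (log2 -1.22, SE 0.15, adjusted p = 0.000171). The sterol response element TCACNCCAC stood in 0 of the 10 promoters found for the members past the test, and in 0.875% of all promoters. Of 19 fatty acid and triglyceride synthesis genes 4 fell, 1 rose and 14 did not pass (median -0.44), 2 and 0 without the block, and 1, 5 and 1 fell without set 1, 2 and 3. SCD, stearoyl-CoA desaturase, fell 2.17-fold (log2 -1.12, SE 0.13, adjusted p = 0.000171), while ME1, malic enzyme, rose by 0.70 (SE 0.11) (adjusted p = 0.0576 without the block). ABCA1, the cellular cholesterol exporter, went from 261, 234 and 218 to 62.8, 43.1 and 59.1 (log2 -1.85, SE 0.24, adjusted p = 0.000347).

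Of 57 measured G1/S and DNA replication genes 16 fell, none rose and 41 did not pass (median -0.42), 7 without the block, and 1, 11 and 5 without set 1, 2 and 3. UHRF1, which maintains DNA methylation through replication, went from 688, 676 and 892 to 254, 225 and 363 (2.62-fold lower, log2 -1.39, SE 0.14, adjusted p = 5.17e-05). PCNA, the replication clamp, went from 1762, 1446 and 1588 to 938, 748 and 1026 (log2 -0.82, SE 0.12, adjusted p = 0.000692), and lost its call without set 1 (adjusted p = 0.0846). E2F8 fell by 1.16 (SE 0.14), and GINS1, a helicase component, fell by 1.02 (SE 0.14). Of 67 G2/M genes 11 fell and 2 rose (median -0.28), 3 and 0 without the block, and 0, 8 and 1 fell without set 1, 2 and 3. ASPM, a spindle protein, fell 1.85-fold (log2 -0.89, SE 0.13, adjusted p = 0.000695), though a dimmer ASPM probe set read 0.19 and was not called. ASPM lost its call without set 1 (adjusted p = 0.08). The rises were ECT2 (log2 0.63, SE 0.13, adjusted p = 0.00627) and KIF23 (log2 0.71, SE 0.18, adjusted p = 0.0166), which act together in cytokinesis. The cell cycle homology motif TTTGAA stood in 29 of 59 promoters found for this list and in 8.93% of those of all tested genes. Among members past the test it stood in 5 of 12 promoters found, those of the rises ECT2 and KIF23 included.

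**Figure D3:**
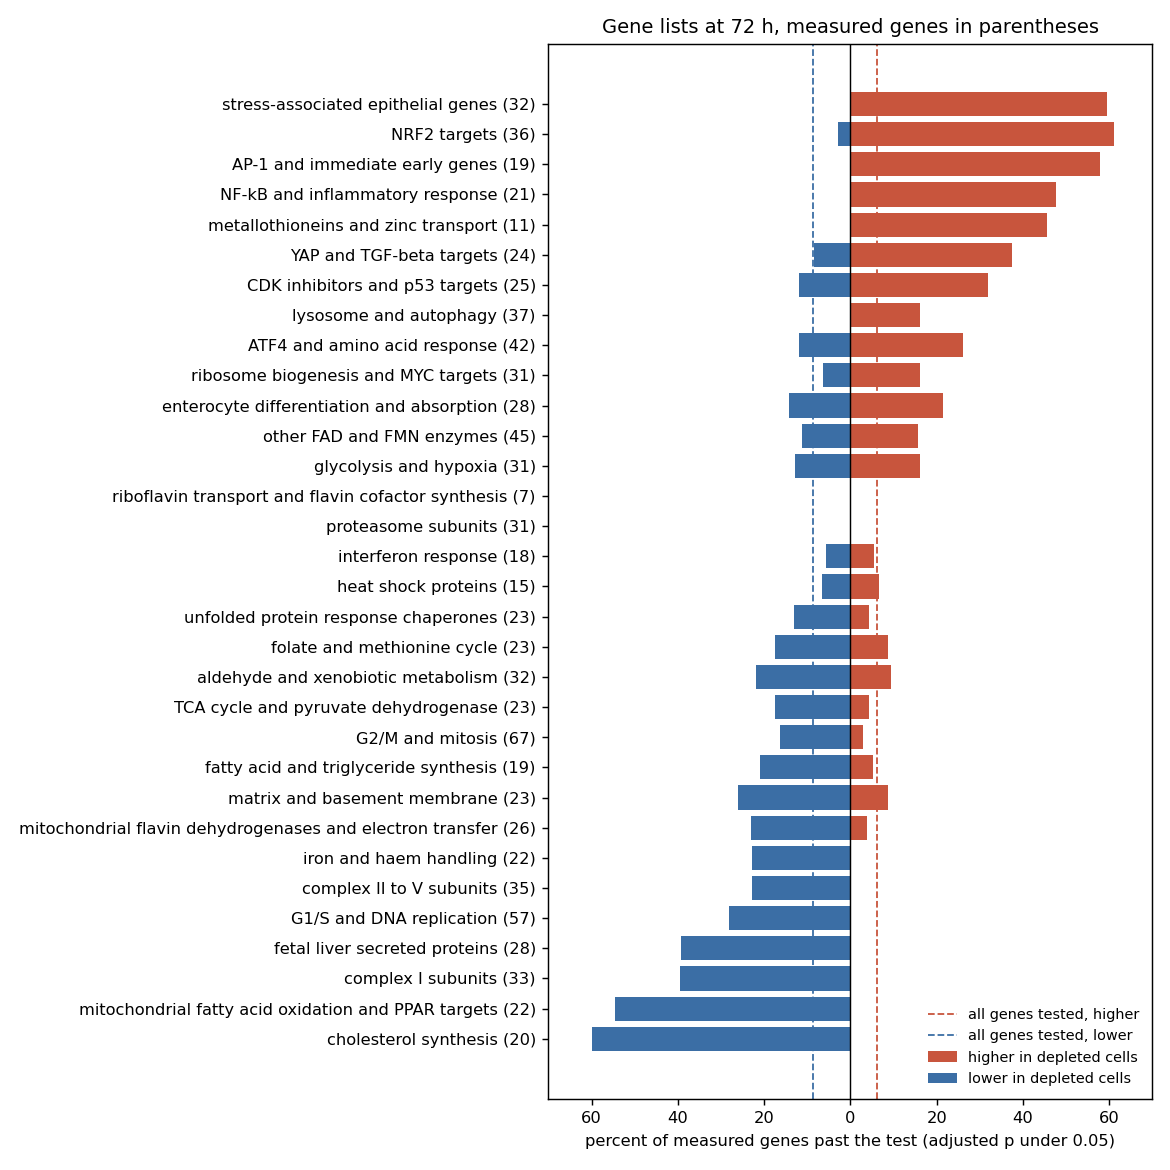
Percent of the measured genes of 32 lists (number in parentheses) that were higher (red, right) or lower (blue, left) in depleted cells at 72 h past the test. Dashed lines mark all genes tested, 6.21% higher and 8.65% lower. NRF2 targets and stress-associated epithelial genes reach farthest to the right, and cholesterol synthesis and fatty acid oxidation farthest to the left. The lists were chosen with earlier results of these data known, so their shares are not independent evidence.

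Of 23 matrix and basement membrane genes 6 fell and 2 rose (median -0.02), 3 and 0 without the block, and 3, 4 and 3 fell without set 1, 2 and 3. LAMA1, a laminin chain of the basement membrane, was among the largest falls, from 698, 401 and 412 to 123, 46.7 and 53.9 (5.94-fold, log2 -2.57, SE 0.16, adjusted p = 1.78e-06), and NID1 fell by 1.16 (SE 0.16). Of 31 glycolysis and hypoxia genes 5 rose and 4 fell (median -0.18), 2 and 0 without the block. Without set 1, 2 and 3 the rises were 1, 5 and 2 and the falls 0, 2 and 0. SLC2A1, the glucose transporter GLUT1, rose 3.16-fold, from 563, 857 and 649 to 2247, 2345 and 1970.4 (log2 1.66, SE 0.18, adjusted p = 8.02e-05), and HK2, hexokinase 2, 2.1-fold (log2 1.07, SE 0.17, adjusted p = 0.00119), while dimmer HK2 probe sets read -0.37 and -0.62 and were not called. The rise of HK2 was not called without set 1 or set 3 (adjusted p = 0.0741 and 0.0888). Of 37 lysosome and autophagy genes 6 rose and none fell (median 0.09), 3 without the block and 1, 4 and 1 without set 1, 2 and 3. GABARAPL1, an autophagosome protein, rose 3-fold (log2 1.58, SE 0.16, adjusted p = 4.35e-05). Of 22 iron and haem genes 5 fell and none rose (median 0.10), but 1 without the block and 0, 1 and 0 without set 1, 2 and 3. The 5 included the haem synthesis genes ALAD (-0.86 (SE 0.19)), UROS (-0.82 (SE 0.20)), PPOX (-0.73 (SE 0.20)) and CPOX (-0.51 (SE 0.14)). A dimmer ALAD probe set read 0.18 and was not called. Of 32 aldehyde and xenobiotic genes 7 fell and 3 rose (median -0.21), 2 and 1 without the block, and 2, 7 and 2 fell without set 1, 2 and 3, with CYP4X1, an orphan P450, at -2.10 (SE 0.20) and CYP1A1, a P450 of the aryl hydrocarbon receptor response, at 1.19 (SE 0.18). Ribosome biogenesis genes gave 5 rises and 2 falls of 31, folate and methionine genes 2 and 4 of 23, and TCA cycle genes 1 and 4 of 23. Without set 1, 2 and 3 the ribosome biogenesis rises were 1, 4 and 1, the folate and methionine falls 1, 2 and 1 and the TCA cycle falls 0, 2 and 0. Heat shock and interferon genes gave 1 rise and 1 fall each (of 15 and 18), and none of 31 proteasome genes passed.

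Large falls outside the lists were CHI3L1, a chitinase-like secreted protein, at 467, 303 and 632 in controls and 77.1, 52.4 and 46.1 in depleted cells (6.33-fold lower, log2 -2.66, SE 0.20, adjusted p = 6.13e-06). RPGRIP1L, a ciliary protein, went from 122, 91.3 and 88.9 to 19, 5 and 8.6 (log2 -2.14, SE 0.19, adjusted p = 2.25e-05). GAS2, a cytoskeletal protein, went from 132, 105 and 107 to 23.5, 22.3 and 1.2 (log2 -2.14, SE 0.27, adjusted p = 0.000249). EPHX2, soluble epoxide hydrolase, fell 3.91-fold (log2 -1.97, SE 0.25, adjusted p = 0.000293) and lost its call without set 1 (adjusted p = 0.051). SLC16A10, an aromatic amino acid transporter, fell 3.77-fold (log2 -1.91, SE 0.26, adjusted p = 0.000457). APELA, an embryonic peptide hormone, fell 4.16-fold (log2 -2.06, SE 0.35, adjusted p = 0.00182) but not without set 3 (adjusted p = 0.0873), and SEMA5A, a semaphorin, 3.87-fold (log2 -1.95, SE 0.36, adjusted p = 0.00323) but not without set 1 or set 3 (adjusted p = 0.0631 and 0.067).

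The response at 72 h differed from that at 24 and 48 h for many of these genes. At 24 h 365 genes were called, 244 higher and 121 lower, and at 48 h 100, 70 higher and 30 lower. Of those called at 24 h 118 were called in the same direction at 72 h (32.3% of the 24 h calls and 6.44% of those of 72 h) and 28 in the opposite one. Of those called at 48 h 57 were called in the same direction at 72 h (57% of the 48 h calls and 3.11% of those of 72 h). Only 5 were called in the opposite one. The effect at 72 h exceeded the mean of the earlier effects for 299 genes and fell below it for 515. Of these, 256 were also called higher and 396 lower at 72 h. With arrays centred on the 75th percentile the split over probe sets turned from 652 above and 961 below to 771 and 574. Without set 1 only 1 probe set passed this test and without set 3 only 21, against 920 without set 2.

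NPPB had the largest change of effect. It was lower in depleted cells at 24 h (-1.39, adjusted p = 0.0133), near no difference at 48 h (-0.25) and higher at 72 h (3.39), a difference of 4.21 (SE 0.31, adjusted p = 2.56e-05). CCL20 followed the same order, with -2.09, -0.16 and 2.38, and a difference of 3.51 (SE 0.47, adjusted p = 0.00145). PTGS2 and RGCC showed no call at the earlier times (24 h -0.10 and 0.12, 48 h -0.15 and 0.01), with differences of 2.97 (SE 0.29, adjusted p = 0.000203) and 2.70 (SE 0.20, adjusted p = 2.56e-05). For EDN1 the difference was 2.57 (SE 0.25, adjusted p = 0.000203). Among the falls, GAS2 stood at 0.38 and 0.44 before it reached -2.14, a difference of -2.55 (SE 0.33, adjusted p = 0.00116). LAMA1 changed in steps of -0.26, -1.10 and -2.57 (-1.89 (SE 0.20, adjusted p = 0.000394)), and SI and FABP1 by -1.45 (SE 0.22, adjusted p = 0.00278) and -1.71 (SE 0.31, adjusted p = 0.00687) against the earlier mean.

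**Figure D4:**
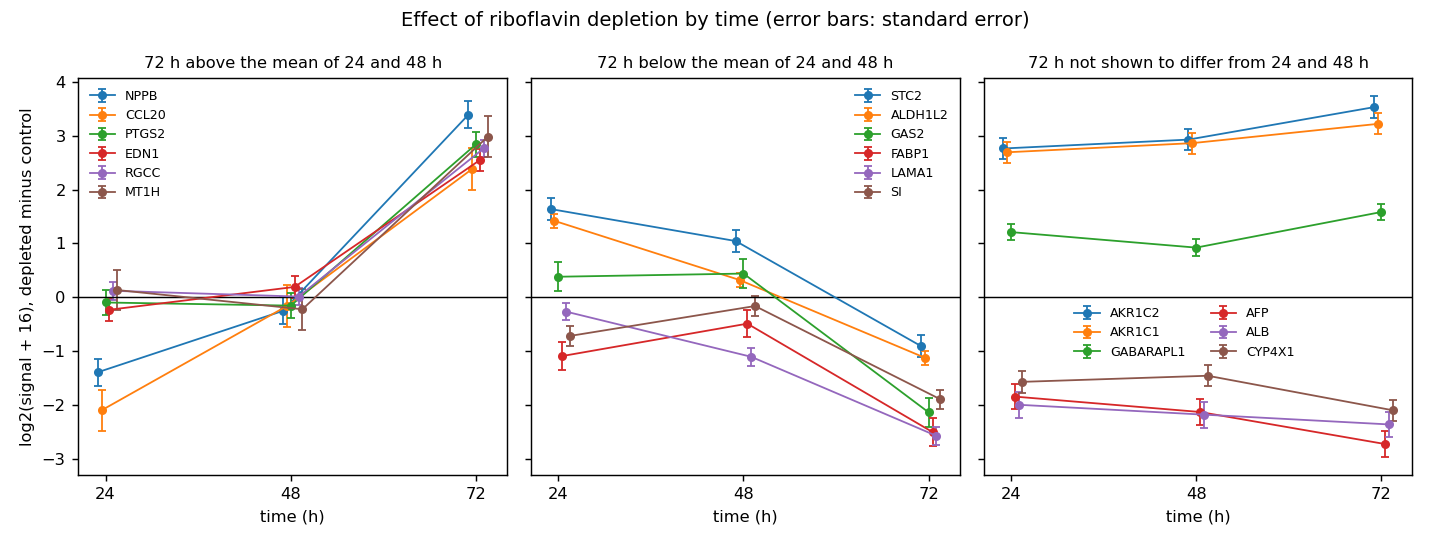
Difference between depleted and control cells (y axis, log2 of signal + 16, error bars of 1 SE) at 24, 48 and 72 h (x axis) for 18 genes, in 3 panels by whether the effect at 72 h lay above, below or not detectably apart from the mean of the earlier effects. NPPB runs from -1.39 through -0.25 to 3.39 and STC2 from 1.64 to -0.90, while AKR1C2 is at 2.76, 2.93 and 3.53.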

How the data were processed

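Affymetrix arrays of biotin-labelled RNA from Caco-2 cells gave 54675 probe sets on 18 arrays, and their number limits the precision. The deposited values are MAS5 signal intensities on a linear scale, scaled per array by the authors. The submitters' processing notes name MAS5 without a version. Detection calls and raw scans were not used here.

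Signals were taken as log2(signal + 16). Left out were 62 control probe sets and those whose mean log2 value was under the median of 5.15 (signal 19.6), which left 27307. A gene was read through its tested probe set with the highest mean, if that carried 1 symbol, giving 12319 genes. Of all probe sets 41091 had 1 symbol in the platform annotation, 1801 several and 11721 none, and 41037 of these symbols were found in RefSeq (GRCh38.p14).

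All 18 arrays were fitted in limma 3.58.1 (R 4.3.3) with 6 group means and the set as fixed replicate block. P-values were adjusted by Benjamini-Hochberg over all tested probe sets (threshold 0.05). Another contrast took the effect at 72 h minus the mean effect at 24 and 48 h. The pairing comes from the running number of the arrays, which the labels do not explain. After group means were taken away the 72 h pairs correlated at 0.494, 0.512 and 0.361, and 18 of 18 arrays correlated best with their own set. In intensities simulated for 27307 probe sets, changes of log2 0.5, 1 and 2 were set into 67, 67 and 66 probe sets. The fit recovered 1, 31 and 56 of these. In the data 3631 probe sets were called, so the simulated shares do not give the sensitivity of the reported fit.

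Named were the 15 largest rises and 15 largest falls of the same sign in all 3 sets, up to 4 members of each of 32 lists with the smallest p, the riboflavin list, and the 5 largest late rises and falls. The members, lists and tests were chosen with earlier results of these data known. Alternatives were no block, a random block, 72 h arrays only, pseudocounts of 4 and 64, centring on the 75th percentile, quantile normalization, other filters, a variance trend, the mean over probe sets, 24 h or 48 h alone, and each set or array of 72 h left out. Figures were drawn with matplotlib.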

Additional observations from a re-analysis of the deposited data

Results flagged for a closer look

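The 67 named genes below had a depletion effect at 72 h that differed from the mean effect at 24 and 48 h, by the limma test of that difference with the set as block (adjusted p under 0.05). They comprise 35 differences above 0 and 32 below. They are given on the log2(signal + 16) scale. Named genes were picked partly by this test, so their number has no bearing on how common such differences are.

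Among stress-associated and secreted epithelial genes the effect at 72 h lay above the earlier mean by 2.38 in EMP1, 4.21 in NPPB, 2.70 in RGCC, 1.91 in GPRC5A, 2.08 in DUSP4, 1.46 in ANXA1 and 2.57 in EDN1, and it lay above it by 1.39 in the adhesion molecule gene CEACAM6. Metallothionein probe sets lay above it by 2.85 in MT1HL1, 3.02 in MT1H, 1.96 in MT1X, 2.32 in MT2A and 1.15 in MT1F. Inflammatory, immediate early, stress response and p53 target genes lay above it by 2.97 in PTGS2, 3.51 in CCL20, 2.00 in CXCL8, 1.27 in TNFAIP8, 2.33 in MAFF, 0.81 in KLF10, 1.25 in ATF3, 1.51 in MYC, 1.20 in GDF15, 1.44 in GADD45A and 1.50 in PLK2. YAP and TGF-beta targets lay above it by 2.72 in CCN1, 2.39 in ANKRD1 and 2.21 in TGFB2. Redox, glucose and carrier genes lay above it by 1.45 in GPX2, 1.20 in TXNRD1, 2.11 in NOX1, 1.48 in SLC2A1, 1.39 in HK2, 0.63 in ME1 and 0.67 in SLC25A32, and the nucleolar gene NOP58 by 0.75.

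Fatty acid and sterol genes lay below it, at -0.72 in ACSL1, -0.79 in ACADM, -1.07 in CPT2, -1.24 in EHHADH, -1.71 in FABP1, -0.63 in SCD, -0.81 in LSS, -1.38 in TM7SF2 and -1.22 in ABCA1. Folate, haem, mitochondrial and flavin-dependent genes lay below it, at -0.65 in SHMT2, -0.78 in MAT2A, -1.99 in ALDH1L2, -0.59 in IDH1, -1.92 in PC, -0.82 in ATP5MC1, -0.90 in PPOX, -1.20 in ALAD, -1.02 in PCYOX1 and -1.06 in ALDH5A1. Secreted and membrane proteins lay below it, at -1.23 in APOB, -1.07 in FGG, -1.16 in CHI3L1, -2.25 in STC2, -1.96 in APELA, -1.89 in LAMA1, -1.45 in SI and -1.60 in SLC16A10. The remaining falls were -1.57 in EPHX2, -2.55 in GAS2, -1.88 in RPGRIP1L, -0.93 in UHRF1 and -0.63 in ASPM. Without set 1 a single probe set passed this test, without set 3 21 did, and without set 2 920, so the differences of single genes were mostly not called without set 1 or set 3. The cause was not tested.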

How the results depend on the processing

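The fit without the replicate block, which ignores the pairing by set, called 1136 probe sets at 72 h (609 higher, 527 lower) against 3631 with it (1748 and 1883), and 296 against 1613 for the difference from the earlier times (147 above, 149 below). With 72 h arrays only, which leave 2 residual degrees of freedom, 1694 were called (912 and 782). With no filter, where 54613 probe sets enter the adjustment, 2273 were called (1118 and 1155), and 804 for the difference (349 and 455). Against 48 h alone the difference passed for 615 (280 above, 335 below), and with arrays centred on the 75th percentile for 574 below. Leaving out a set or a single array of 72 h gave 349 to 2853 calls (201 to 1355 higher, 148 to 1498 lower), and 1 to 1124 for the difference (1 to 454 above, 0 to 670 below). A lone array was assumed to vary like the other groups. The cause of these shifts was not tested, other than that fewer arrays or more probe sets entered the fit. A random block, pseudocounts of 4 and 64, centring, quantile normalization, the stricter filter and a variance trend kept the count at 72 h within 1.5 times. Of 130 named genes 93 kept their side of the threshold without the block and 105 with 72 h arrays only. Without set 1, set 2 and set 3 it was 61, 115 and 72. Direction turned only in values near 0 or with the mean over probe sets. Over the sets and arrays left out, SLC52A2 ranged from -0.071 to 0.32, FLAD1 from -0.013 to 0.12 and SLC52A3 from -0.026 to 0.63. As the mean of their probe sets FLAD1 read -0.41 and SUCLG1 0.13. Low signals limit dim genes such as MT1H, CXCL8 and SLC52A3, for which adding 16 understates folds.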

Other observations

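Genes of the intestinal stem cell and WNT pathway list, chosen for naming after their values were seen, were mostly not past the test at 72 h. Of 12 measured 3 fell and none rose, where 8.65% of all genes tested were lower and 6.21% higher. Control arrays had summed signals of 4339 to 5074 and depleted arrays of 3267 to 3942. PROM1 was part of this difference, with a mean of 1924 in controls and 1428 in depleted cells. It did not pass the test (adjusted p = 0.169). ZNRF3, a membrane ubiquitin ligase that restrains WNT receptors, had control signals of 474, 595 and 465 and depleted signals of 149, 182 and 164 (2.9-fold lower, log2 -1.54, SE 0.13, adjusted p = 1.73e-05). TNFRSF19, a WNT-responsive receptor, went from 453, 248 and 435 to 190.5, 157 and 166 (log2 -1.03, SE 0.16, adjusted p = 0.00113). ASCL2, a stem cell transcription factor, fell by 0.46 (SE 0.15) and passed only narrowly (adjusted p = 0.0499). LGR5 (log2 -0.46, SE 0.25, adjusted p = 0.248), AXIN2 (log2 -0.15, SE 0.17, adjusted p = 0.641) and SOX9 (log2 0.18, SE 0.16, adjusted p = 0.498) did not pass the test.

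Of 8 measured fibroblast markers 2 fell, COL1A1 (log2 -1.05, SE 0.28, adjusted p = 0.0247) and PDGFRA (log2 -1.25, SE 0.26, adjusted p = 0.00641), while COL3A1 (0.50), DCN (0.57), LUM (0.46), SPARC (0.68), VIM (0.17) and THY1 (-0.18) did not pass the test. Summed signals were 1213 to 1447 (control) and 950.4 to 1078 (depleted), and the lower sum came mainly from COL1A1 and PDGFRA. COL1A2, PDGFRB, FAP, POSTN and FBN1 were too dim to be tested. Hepatocyte markers, 9 of 14 of which fell, overlap with the fetal liver list described above.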
